A study of Mus musculus with 2 samples.

Results

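The immunoglobulin genes were examined in RNA sequencing of sorted regulatory T (Treg) cells, a class of CD4 T cell that keeps immune responses in check and is defined by the factor Foxp3. Members were all gene rows named as heavy (Ighv), kappa (Igkv) or lambda (Iglv) variable segments, together with the heavy chain constant genes Ighm, Ighd, Ighe, Igha and Ighg1 to Ighg3 with their sub-forms, the kappa constant gene Igkc and the lambda constant genes. This name rule took 363 of 34745 gene rows. Of these, 156 had at least 5 counts summed over both libraries and are called measured here: 73 of 185 heavy V segments, 68 of 162 kappa V segments, 3 of 3 lambda V segments, 8 of 8 heavy constant genes, Igkc and 3 of 4 lambda constant genes. A further 176 rows had 0 counts in both libraries, Iglc4 among them, and 31 rows had 1 to 4 counts and held 67 counts in total. Just inside the limit, Ighv1-5 had 3 and 2 counts (wild-type library, then knockout) and Igkv1-99 had 5 and 0. Just outside it, Ighv1-49 had 2 and 2 and Igkv8-16 had 3 and 1.

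The study held 2 libraries, both from spleens of 2-week-old C57BL/6 mice and both from cells sorted as CD4+ and positive for the yellow fluorescent protein carried by the Foxp3Cre allele. The wild-type library came from poh1+/+ Foxp3Cre+ mice and the knockout library from poh1fl/fl Foxp3Cre+ mice, so the controls carry the Cre allele too. Cre is driven by Foxp3 and acts in Foxp3-expressing cells, so cells of other lineages in these mice keep the floxed gene apart from any Cre activity outside Treg cells. The sources used here do not give whether a library pooled several mice. Pairs of values are given in the order wild type, knockout. With 1 library per genotype no difference below has a replicate check, and every comparison is between these libraries. Ranges in parentheses are exact 95% intervals that cover counting error only.

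An antibody joins heavy chains to kappa or lambda light chains. In B cells, V(D)J recombination joins a V segment to a J segment (and in heavy chains a D segment), and splicing links the rearranged exon to a constant region, so that a B cell clone uses a particular V segment in each chain. Naive B cells read the heavy chain through Ighm and Ighd. Class switch recombination then exchanges these for an IgG, IgE or IgA constant gene, and plasma cells make large amounts of the resulting mRNA. T cells rearrange T cell receptor genes and do not make antibody, although transcripts of the Ighm region that lack a V segment are known in lymphoid cells. A gene count does not show whether a constant transcript carried a rearranged V segment.

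Total counts were 18124611 (wild type) and 14544212 (knockout). Psmd14, which encodes POH1, the deubiquitinase of the proteasome lid, had 1619 and 463 counts, or 89.4 and 31.8 CPM (the depth-scaled count, on TMM library sizes). Its level in the knockout library was 2.81-fold lower (2.53 to 3.12), 35.6% of the wild-type level. The sorted identity was checked on 10 Treg and CD4 T cell markers, whose summed level was 6074 and 6189 CPM. Of these, 0 of 10 differed beyond 2-fold in either direction, and 4 had a ratio above 1. Within 2-fold the Treg genes were split. Foxp3 had a ratio of 1.60 (1.56 to 1.64) and Il2ra of 1.55 (1.52 to 1.58). Ctla4 had a ratio of 0.628 (0.613 to 0.643) and Ikzf2 of 0.637 (0.620 to 0.655). All immunoglobulin members together took 0.109% and 0.0803% of counts. Markers of B cells were also present at low level and are given beside the immunoglobulin results further on.

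The most marked pattern was in the heavy chain constant genes. Ighm and Ighd were lower in the knockout library, and all 4 IgG genes and Ighe were higher. A member was called higher or lower where its 95% interval lay wholly beyond 2-fold. By this rule 5 of 12 constant genes were higher and 2 of 12 lower. Over all 156 measured members 37 were higher and 7 lower, which is 23.7% and 4.49%, beside a background over 16386 gene rows of 4.17% higher and 6.15% lower. On the log2 scale the median knockout to wild-type ratio was 0.84 over the measured members and -0.02 over all gene rows tested. The 5-count filter bears on these shares, because 11 measured V segments had 0 wild-type counts and 10 had 0 knockout counts and so passed through the other library alone.

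Ighm, the constant gene of IgM (chr12:113418558-113422730 on mm10, minus strand), had 15687 and 3106 counts. Its level was 866 and 213 CPM, 4.06-fold lower in the knockout library (3.90 to 4.22). Ighd, which B cells co-express with Ighm from a shared transcript (chr12:113406604-113416324), had 521 and 112 counts, or 28.8 and 7.70 CPM, 3.74-fold lower (3.04 to 4.62). Both were lower by a like factor: Ighd made 3.21% (2.95 to 3.50) and 3.48% (2.87 to 4.17) of the summed Ighm and Ighd counts, and these intervals overlap.

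The IgG subclasses differ from one another in sequence and length in the hinge, the exon that joins the antigen-binding arms to the stem and carries the cysteines that link the heavy chains. The hinge exons are shown because the IgG counts rest on telling these genes apart. Each is given 5′ to 3′ on the minus strand of chromosome 12 in the mm10 build, with in-frame cysteine codons (TGT or TGC) in capitals.
Ighg3, chr12:113360529-113360576: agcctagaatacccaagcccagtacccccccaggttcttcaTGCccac
Ighg1, chr12:113329844-113329882: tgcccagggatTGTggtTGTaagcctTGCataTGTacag
Ighg2b, chr12:113307261-113307326: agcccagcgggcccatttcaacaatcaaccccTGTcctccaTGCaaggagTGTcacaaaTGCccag
Ighg2c, chr12:113288263-113288325: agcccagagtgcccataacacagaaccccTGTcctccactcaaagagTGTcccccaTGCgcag
The Ighg1 and Ighg2b hinges hold 4 cysteine codons, that of Ighg2c holds 3 and that of Ighg3 holds 1. Aligned pair by pair, the hinges of Ighg1 and Ighg3 were 39.6% identical and those of Ighg2b and Ighg2c 77.3%. The CH2 exons of Ighg2b and Ighg2c were closer, at 94.2%, and the coding parts of their CH3 exons were 76.6% identical. Over whole transcripts, at most 5.49% of the 50-base stretches of a heavy constant gene (Ighg2c) were shared with another member.

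Ighg1, the constant gene of IgG1 (chr12:113325240-113330523), had 62 wild-type and 2217 knockout counts. Its level was 3.42 and 152 CPM, 44.5-fold higher in the knockout library (34.6 to 58.3). Ighg2c, which C57BL/6 mice carry in place of Ighg2a (chr12:113285325-113288932), had 24 and 666 counts, or 1.32 and 45.8 CPM, 34.6-fold higher (23.03 to 54.3). Per unit of transcript length, the authors' deposited FPKM placed Ighg1 (1.18) and Ighg2c (0.686) below Ighd (15.1) in the wild-type library and both (52.4 and 23.7) above Ighd (4.05) in the knockout library.
Ighg2b (chr12:113302965-113307933) had 13 and 184 counts, a 17.6-fold higher level (10.1 to 33.7). Ighg3 (chr12:113356224-113361232), the IgG subclass known from responses to polysaccharides, had 10 and 146 counts, 18.2-fold higher (9.61 to 38.7). Ighe, which encodes the IgE constant region bound by mast cells and basophils (chr12:113269260-113273248), had 16 and 110 counts, 8.56-fold higher (5.04 to 15.5). These 3 genes stayed at or below 12.6 CPM in the knockout library.
Igha, the constant gene of the mucosal class IgA (chr12:113254830-113260236), had 34 and 47 counts, a ratio of 1.72 (1.08 to 2.76) that did not lie beyond 2-fold.

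**Figure D1:**
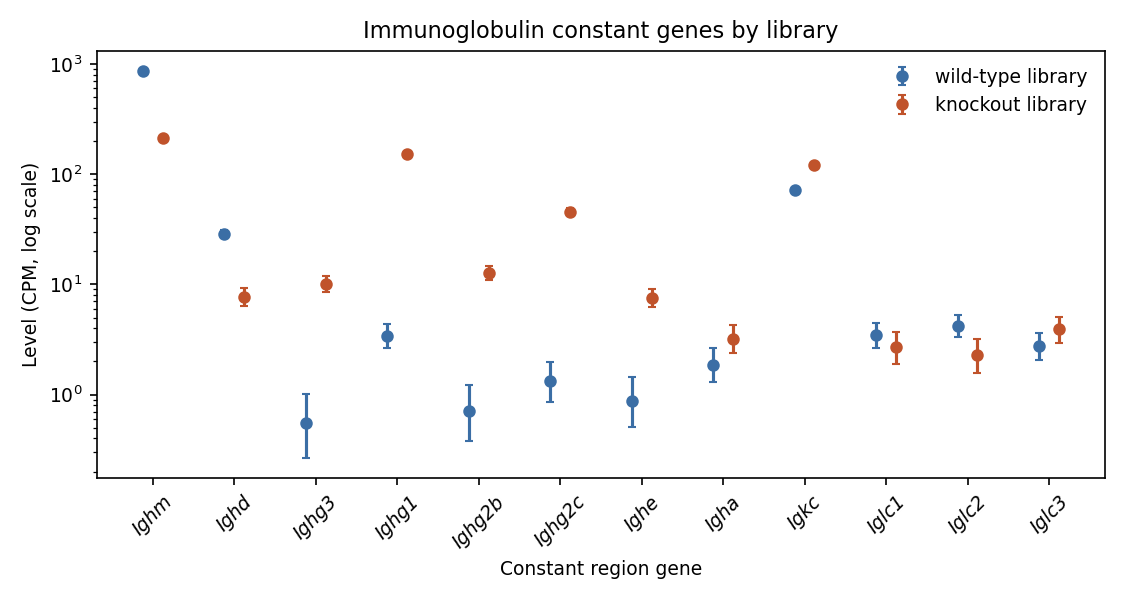
Level of each measured constant gene (CPM, log axis) in the wild-type and the knockout library, with heavy chain genes in their order along the locus and then the light chain genes. Points are single libraries and bars exact 95% Poisson intervals of the count; Ighm and Ighd sit lower in the knockout library, the IgG genes and Ighe higher, and the Igha and lambda intervals lie close together.

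Composition shows the same data without any scaling between libraries. Ighm made 95.8% (95.5 to 96.1) of wild-type and 47.1% (45.9 to 48.4) of knockout heavy constant counts. The IgG genes together made 0.666% (0.547 to 0.803) and 48.8% (47.6 to 49.985). IgG, IgE and IgA taken as the switched classes made 0.971% (0.827 to 1.13) and 51.2% (49.9 to 52.4). Ighg1 alone went from 0.379% to 33.7%, Ighg2c from 0.147% to 10.1%, Ighg2b from 0.0794% to 2.79%, Ighg3 from 0.0611% to 2.22% and Ighe from 0.0978% to 1.67%. Within IgG, Ighg1 held 56.9% (47.05 to 66.3) and 69.001% (67.4 to 70.6) of counts. It was thus the leading IgG gene in both libraries.

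**Figure D2:**
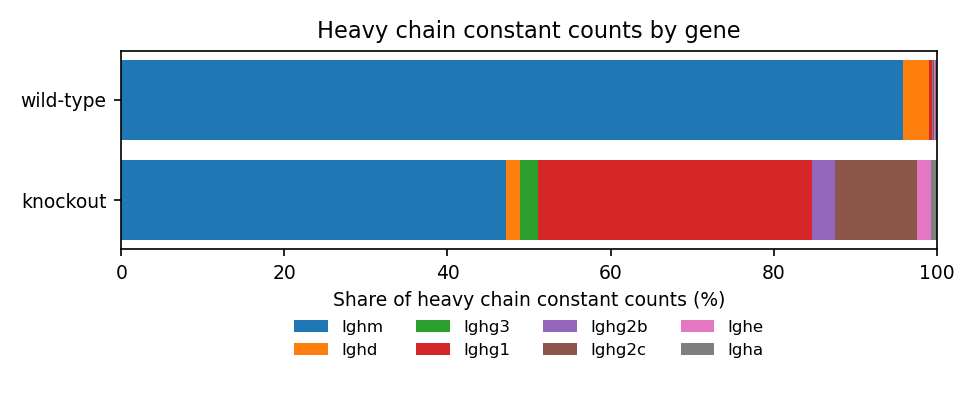
Share of heavy chain constant counts (%) taken by each gene, with 1 bar per library that adds to all heavy constant counts. Ighm fills 95.8% of the wild-type bar and 47.1% of the knockout bar, where Ighg1 takes 33.7%.

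As absolute sums the switched classes and the unswitched classes moved in opposite directions. The IgG genes summed to 109 and 3213 counts, or 6.02 and 221 CPM, 36.7-fold higher in the knockout library (30.3 to 44.9). Ighm and Ighd together summed to 16208 and 3218 counts, 4.04-fold lower (3.89 to 4.20). The wild-type Ighm count was so large that all heavy constant genes together were 1.99-fold lower in the knockout library (1.94 to 2.05), and the sum over all members was 1.36-fold lower (1.33 to 1.39). With Ighm left out, the sum over all other members was 4110 and 8572 counts, or 227 and 589 CPM, 2.60-fold higher (2.50 to 2.70). The direction of the immunoglobulin total therefore turns on a single gene.

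Among light chain constant genes, Igkc, the only kappa constant gene (chr6:70726435-70726966, plus strand), had 1294 and 1757 counts. Its level was 71.4 and 121 CPM, a ratio of 1.69 (1.57 to 1.82). The lambda constant genes are few in mice and each pairs with particular lambda V segments. Iglc1 had 63 and 39 counts, a ratio of 0.771 (0.503 to 1.17). Iglc2 had 76 and 33 counts, with the knockout level 1.85-fold lower (1.21 to 2.87), and Iglc3 had 50 and 57 counts, a ratio of 1.42 (0.954 to 2.12). None of these 4 light chain genes differed beyond 2-fold by the interval rule. Iglc3 shared 20.6% of its exon length with another gene and 10.7% of its 50-base stretches with another member, so its count is less certain than the rest. Kappa made 87.3% (85.5 to 88.9) and 93.2% (91.9 to 94.3) of light chain constant counts. By the authors' deposited FPKM, Ighm (390.04) stood above Igkc (134) in the wild-type library and below it (96.2 against 227) in the knockout library. By CPM, which is not scaled to length, Ighm (866 and 213) stood above Igkc (71.4 and 121) in both libraries.

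The V segments as sums were higher in the knockout library in the heavy and kappa chains by nearly the same factor. Heavy V segments summed to 927 and 1529 counts, or 51.2 and 105.1 CPM, a ratio of 2.05 (1.89 to 2.23). Kappa V segments summed to 911 and 1557 counts, or 50.3 and 107.02 CPM, a ratio of 2.13 (1.96 to 2.31). Lambda V segments summed to 109 and 118 counts, a ratio of 1.35 (1.03 to 1.77). Heavy V segments took 47.6% (45.4 to 49.9) and 47.7% (45.98 to 49.5) of all V counts, so the balance of heavy to light V counts was alike within counting error. Kappa took 89.3% (87.3 to 91.1) and 92.96% (91.6 to 94.1) of light chain V counts.

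The ratio of V to constant counts in a chain is not corrected for gene length and is read only between libraries. Per 100 heavy constant counts there were 5.66 and 23.2 heavy V counts. Seen from the other side, there were 1692 and 203 Ighm counts per 100 heavy V counts. The direction turned with Ighm left out, at 136 and 43.9 heavy V counts per 100 of the other heavy constant counts. Per 100 switched constant counts there were 583 and 45.4 heavy V counts. The kappa chain was far steadier, with 70.4 and 88.6 kappa V counts per 100 Igkc counts. Lambda had 57.7 and 91.5 lambda V counts per 100 lambda constant counts. Per 100 Igkc counts there were 1212 and 177 Ighm counts, and 8.42 and 183 IgG counts. Ighm thus stood higher against the V counts and against Igkc in the wild-type library, and IgG higher in the knockout library.

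Each V segment was low in these libraries: the highest level was 8.94 CPM and 83 of 144 measured segments reached 1 CPM in either library. By the 2-fold interval rule 32 of 144 were higher, 5 lower and 107 neither. Among the 6129 gene rows in the count range of the V segments (5 to 173 counts), 5.43% were higher and 7.67% lower, against 22.2% and 3.47% of the V segments. The median log2 ratio was 1.11 for heavy, 0.78 for kappa and 0.23 for lambda V segments. Since the heavy and kappa V sums were about 2-fold higher, the share of a segment within its chain is given beside its level. It is a share of RNA counts, as is any use of segments named below, and the number of cells with a segment was not measured. By that measure 10 of 144 segments (6.94%) had a share beyond 2-fold higher and 13 (9.03%) beyond 2-fold lower, and 9 of these had 0 counts in 1 library. These shares lie near the 5.43% and 7.67% called by level among all rows of that count range, so the share calls are given as values and nothing is read from their number.

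Among the 6 heavy V segments with most counts, Ighv14-2 had 16 and 89 counts, a level 6.93-fold higher (4.04 to 12.6), and its share of heavy V counts was 1.73% and 5.82%. Ighv8-8 had 10 and 77 counts, 9.59-fold higher (4.94 to 20.8). Ighv1-9 had 25 and 85 counts, 4.24-fold higher (2.68 to 6.90). These 3 were the most used heavy segments of the knockout library.
The other members of this group were not higher. Ighv1-53, the most used heavy segment of the wild-type library, had 66 and 22 counts, with its share at 7.12% and 1.44% and its level 2.41-fold lower (1.47 to 4.10), an interval that crosses 2-fold. Ighv10-1 had 59 and 38 counts, a ratio of 0.802 (0.519 to 1.23), and Ighv3-6 had 37 and 53, a ratio of 1.78 (1.15 to 2.79).

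At the ends of the range, Ighv3-8 had 3 and 54 counts, 22.4-fold higher (7.27 to 112), and Ighv5-12 had 1 and 25 counts, a ratio of 31.1 (5.10 to 1278) that a lone wild-type count leaves imprecise. In the other direction, Ighv7-3 had 49 and 6 counts, 6.56-fold lower (2.81 to 18.7), and its share went from 5.29% to 0.392%. Ighv1-42 had 29 and 2 counts, 11.6-fold lower (2.95 to 101). Ighv1-74 had 14 and 0 counts. By share of heavy V counts, 8 segments were beyond 2-fold higher (Ighv3-8, Ighv5-12, Ighv8-8, Ighv1-7, Ighv1-75, Ighv5-6, Ighv1-52 and Ighv1-85) and 6 beyond 2-fold lower (Ighv1-53, Ighv7-3, Ighv1-42, Ighv1-74, Ighv14-1 and Ighv1-11), a list named after its values were seen.

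Among kappa V segments, Igkv1-117 had 43 and 130 counts, 3.77-fold higher in the knockout library (2.65 to 5.45), and Igkv10-96 had 15 and 130 counts, 10.8-fold higher (6.31 to 19.8). Each took 8.35% of the kappa V counts of the knockout library. Igkv10-94 had 30 and 86 counts, 3.57-fold higher (2.33 to 5.61), and Igkv14-111 had 19 and 86, 5.64-fold higher (3.40 to 9.81). Igkv6-23 had 23 and 60 counts, a ratio of 3.25 (1.98 to 5.51) just short of the rule. Igkv1-110, the most used kappa segment of the wild-type library, had 62 and 66 counts, a ratio of 1.33 (0.923 to 1.91).
Igkv4-80 had 0 and 21 counts. Igkv4-55 and Igkv5-48 each had 21 and 2 counts, 8.43-fold lower (2.06 to 74.2). Of the lambda V segments, Iglv1 had 61 and 80 counts, a ratio of 1.63 (1.16 to 2.32), Iglv2 had 36 and 34, a ratio of 1.18 (0.714 to 1.93), and Iglv3 had 12 and 4, 2.41-fold lower (0.730 to 10.2). No lambda segment differed beyond 2-fold. By share of kappa V counts, Igkv10-96 and Igkv4-80 were beyond 2-fold higher and 7 segments beyond 2-fold lower, of which 5 had 0 knockout counts. The other 22 V segments called higher by level had 0 to 18 wild-type and 8 to 58 knockout counts.

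**Figure D3:**
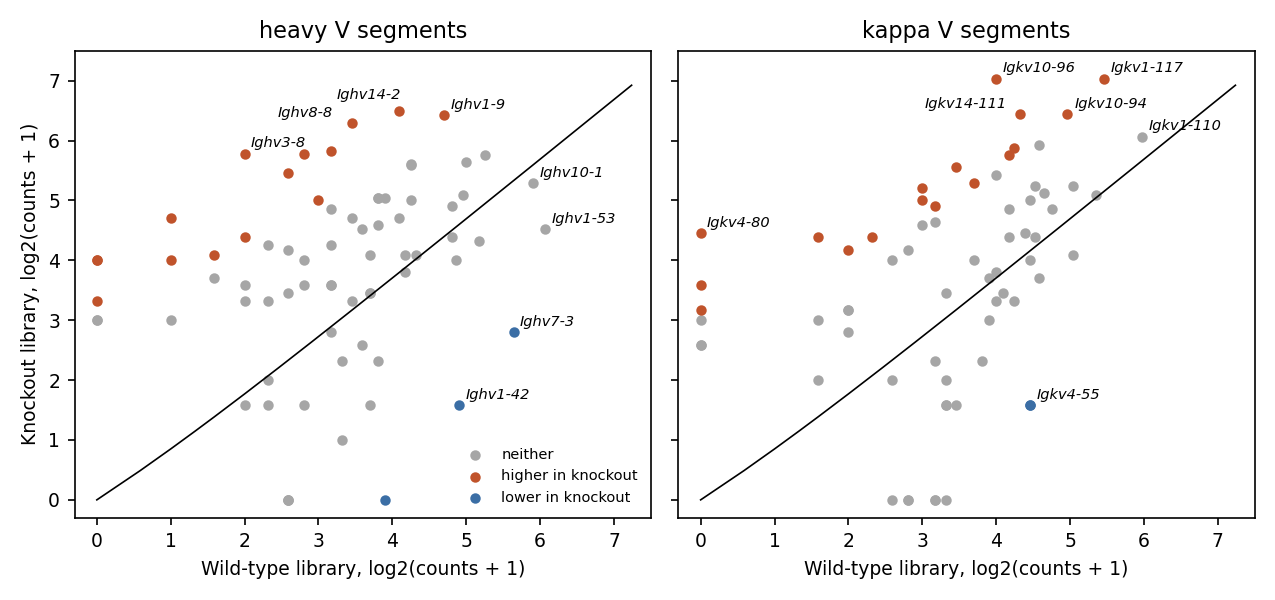
Counts of each measured heavy (left) and kappa (right) V segment in the wild-type library (x) and the knockout library (y), as log2 of counts plus 1, with equal level on the black line. Colours mark segments beyond 2-fold by the interval rule: 15 heavy and 17 kappa segments lie above the line in orange, and 3 heavy and 2 kappa segments below it in blue, with some points lying on top of each other.

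Near copies of V segments can lie far apart in these counts or be called alike, and the pairs below show both cases. They were chosen after their values were seen, to show how little sequence separates such members. Igkv10 exons are whole, and of the longer Ighv14 exons the last 300 bases are shown. Capitals mark the bases that differ within a pair, and each V exon is given 5′ to 3′ on the minus strand of the mm10 build.
Igkv10-94, chr6:68704508-68704805: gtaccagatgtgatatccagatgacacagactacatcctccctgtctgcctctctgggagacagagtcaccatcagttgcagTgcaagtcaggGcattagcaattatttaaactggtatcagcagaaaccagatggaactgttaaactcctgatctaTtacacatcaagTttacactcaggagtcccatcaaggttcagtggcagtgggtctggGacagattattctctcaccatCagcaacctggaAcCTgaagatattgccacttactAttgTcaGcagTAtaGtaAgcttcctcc
Igkv10-96, chr6:68631963-68632260: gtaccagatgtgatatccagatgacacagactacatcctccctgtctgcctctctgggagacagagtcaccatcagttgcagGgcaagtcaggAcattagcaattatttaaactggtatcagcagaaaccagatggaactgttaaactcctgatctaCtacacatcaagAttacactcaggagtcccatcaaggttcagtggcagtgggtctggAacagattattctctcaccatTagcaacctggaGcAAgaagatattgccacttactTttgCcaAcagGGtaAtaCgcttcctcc
Ighv14-1, chr12:113931953-113932252: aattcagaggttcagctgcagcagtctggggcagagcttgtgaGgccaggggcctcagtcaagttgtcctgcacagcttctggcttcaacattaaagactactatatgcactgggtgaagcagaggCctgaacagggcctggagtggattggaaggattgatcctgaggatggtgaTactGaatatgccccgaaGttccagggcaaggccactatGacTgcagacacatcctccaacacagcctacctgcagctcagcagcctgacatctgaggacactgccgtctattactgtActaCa
Ighv14-2, chr12:113994469-113994768: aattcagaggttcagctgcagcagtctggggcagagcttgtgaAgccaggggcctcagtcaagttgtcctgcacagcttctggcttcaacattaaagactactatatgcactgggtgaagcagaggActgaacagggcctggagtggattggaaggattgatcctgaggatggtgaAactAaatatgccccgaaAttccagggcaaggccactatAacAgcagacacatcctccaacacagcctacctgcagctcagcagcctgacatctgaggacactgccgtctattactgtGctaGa
The kappa pair differs at 16 of 298 bases, and both members were higher in the knockout library. The heavy pair differs at 9 bases and is 97.0% identical. There Ighv14-1 had 12 and 2 counts while Ighv14-2 had 16 and 89. The closest pair in which both members were higher, Ighv1-61 (2 and 16 counts) and Ighv1-52 (0 and 15 counts), had V exons 98.7% identical. The median measured V segment shared 22.2% of its 50-base stretches with another member, and 19 measured members shared over 50%. The sources used here do not give how reads that match several places were counted, so counts may be split between such members.

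Summing by family joins the closest copies. Ighv1, the largest heavy family (36 measured segments), had 418 and 691 counts and the same share in both libraries, 45.1% and 45.2% of heavy V counts. Ighv8 (3 segments) had 20 and 109 counts, with its share at 2.16% and 7.13%, a share ratio of 3.30 (2.04 to 5.62). Ighv5 (8 segments) had 63 and 205 counts, 6.80% and 13.4%. Ighv7, measured with 2 segments, had 84 and 25 counts, 9.06% and 1.64%, a share ratio of 0.180 (0.111 to 0.285). Its other member, Ighv7-1, had 35 and 19 counts. The family was chosen for mention after its values were seen. The remaining heavy families with 3 or more measured segments were closer: Ighv2 at 9.71% and 7.52%, Ighv3 at 4.85% and 6.998%, Ighv14 at 4.21% and 6.998% and Ighv9 at 4.64% and 4.32%.

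Among the kappa families, Igkv10 (3 segments) had 48 and 222 counts. Its level was 5.76-fold higher in the knockout library (4.20 to 8.04), and its share was 5.27% and 14.3%, a share ratio of 2.71 (1.97 to 3.78). Igkv10-94 and Igkv10-96, printed above, held nearly all of it, and Igkv10-95 had 3 and 6 counts. Igkv5 (4 segments) had 53 and 31 counts, with its share at 5.82% and 1.99%, a share ratio of 0.342 (0.212 to 0.543). Igkv8 (7 segments) had 138 and 142 counts, 15.1% and 9.12%, and Igkv3 (6 segments) had 45 and 42 counts, 4.94% and 2.70%. Igkv12 (6 segments) was at 5.16% and 5.52%, Igkv2 (3 segments) at 3.73% and 3.40% and Igkv9 (3 segments) at 4.17% and 2.89%, each with overlapping intervals. The large families Igkv4 (14.5% and 17.1%), Igkv1 (15.7% and 16.8%) and Igkv6 (10.6% and 12.9%) had shares whose intervals overlap.

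**Figure D4:**
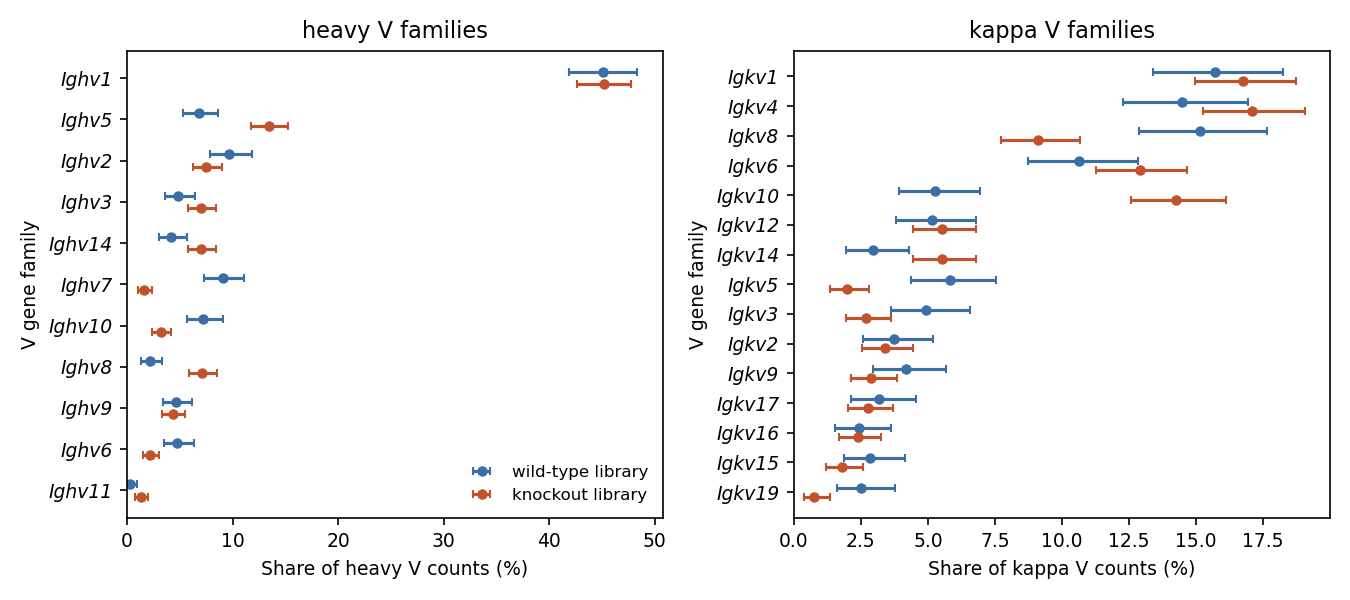
Share of heavy (left) and kappa (right) V counts (%) by V gene family in each library, for families with at least 20 counts in total. Points are single libraries and bars exact 95% intervals; Ighv1 stays at 45.1% and 45.2%, while Ighv8 and Igkv10 take a larger and Ighv7 and Igkv5 a smaller share in the knockout library.

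Many segments were in use in both libraries. At least 1 count was found for 82 and 74 heavy V segments, with 65 shared. Thinned to the 954 heavy V counts of the wild-type library (all rows, measured or not), the knockout library would show 71.8. For kappa, 73 and 65 segments were found, with 57 shared, and 62.97 would be expected in the knockout library at 938 counts. The effective number of segments (the inverse Simpson index, which counts evenly used segments) was 39.3 and 40.3 for heavy V. For kappa V it was 43.9 and 29.1. Usage was therefore less even in the kappa chain of the knockout library, where the 5 leading segments held 31.98% of kappa V counts. The 5 leading kappa segments of the wild-type library held 22.9% there. In heavy V, the 5 leading segments of the wild-type library held 26.5% there and 9.03% in the knockout library, and the 5 leading segments of the knockout library held 7.01% and 23.6%, at a like effective number. Segments chosen as the highest of a library are high there by construction.

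Across segments, the share in 1 library was related to the share in the other with Pearson's r = 0.25 and Spearman's rho = 0.35 over 73 heavy segments, and r = 0.53 and rho = 0.48 over 68 kappa segments. These are descriptions across segments of 2 libraries, and segments share families and reads. By position, segments were ranked by distance from the first J segment and cut into 3 stretches with equal numbers of V rows, and the stretch nearest to J held 39.8% and 38.7% of heavy V counts, the middle one 33.98% and 30.3% and the farthest 26.2% (23.4 to 29.2) and 31.001% (28.7 to 33.4). In the kappa locus the stretch nearest to J held 41.3% (38.1 to 44.5) and 32.4% (30.05 to 34.8), and the stretch farthest from it 40.4% (37.2 to 43.7) and 49.97% (47.5 to 52.5). Pseudogenes held 0.108% and 0.981% of heavy V and 0.549% and 0.193% of kappa V counts. Of 131 V rows annotated as pseudogenes 2 were measured, Ighv1-2 with 1 and 15 counts and Igkv12-47 with 5 and 3.

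Antibody is made by B lineage cells, so B cell and plasma cell markers are given beside the members. Counts of called genes here and in the lists below stand beside 4.17% higher and 6.15% lower over all gene rows tested. Of 18 B cell markers, 0 were higher and 10 lower, at a median log2 ratio of -1.86 and a summed level of 278 and 158 CPM, and none was at 0 in either library. Cd79a, a signalling partner of membrane immunoglobulin, had 390 and 70 counts, 4.47-fold lower (3.46 to 5.86). Cd79b had 469 and 179 counts, 2.10-fold lower (1.77 to 2.51), an interval that crosses 2-fold. Pax5, the factor that fixes B cell identity, had 366 and 44 counts, 6.68-fold lower (4.88 to 9.35). Ralgps2, the most abundant of this list and the only one with a ratio above 1, had 951 and 1225 counts, a ratio of 1.60 (1.47 to 1.75). It was not beyond 2-fold, nor were Cd72 (a ratio of 0.996) and Bank1 (0.671). Ighm, Ighd and 10 of the 18 B cell markers were thus lower, while the IgG genes and the V sums were higher. In bulk samples, fewer cells of a type and less RNA per cell cannot be told apart, and the part of B lineage cells in these results was not tested.

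Plasma cells are the main makers of IgG mRNA. Of 11 measured plasma cell markers 1 was higher and 1 lower, with a median log2 ratio of -0.19 and a summed level of 567 and 434 CPM, much of it from Irf4 and other genes that Treg cells also express. Of the 11, 3 had a ratio above 1. Irf4 had 4518 and 1973 counts, a ratio of 0.544, and Derl3 had 77 and 23, a ratio of 0.372 (0.223 to 0.599). Jchain, which joins IgM and IgA into polymers and is a marker of antibody-secreting cells, had 175 and 247 counts, a ratio of 1.76 (1.44 to 2.15). Mzb1, a chaperone of antibody assembly, had 72 and 56 counts, a ratio of 0.969 (0.671 to 1.39). Sdc1 (CD138) had 27 and 19 counts and Tnfrsf17 (BCMA) had 0 in both libraries. The gene that was higher was Xbp1, the factor that expands the secretory pathway, with 1205 and 2180 counts, 2.25-fold higher (2.10 to 2.42). The gene that was lower was Prdm1, which encodes Blimp-1, with 1398 and 337 counts, 3.33-fold lower (2.96 to 3.76). Neither is particular to plasma cells, Prdm1 being active in Treg cells too, and the part of plasma cells in the IgG result was not tested.

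**Figure D5:**
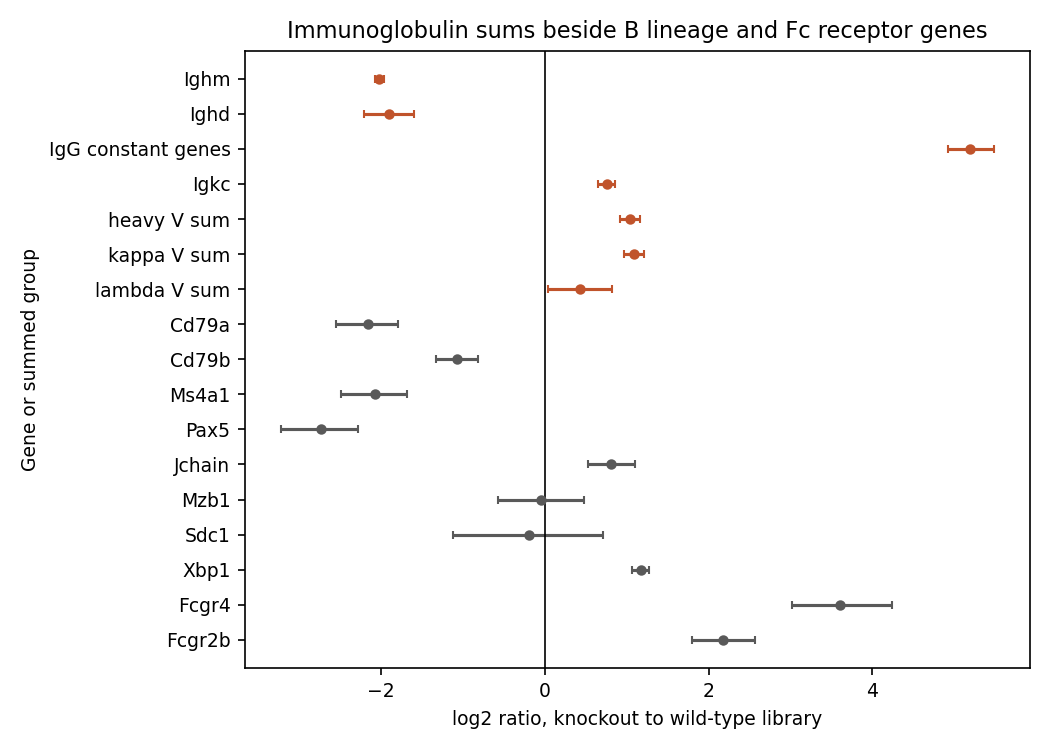
log2 ratio of the knockout to the wild-type library for immunoglobulin genes and sums (orange) and for B cell, plasma cell and Fc receptor genes (grey), with exact 95% counting intervals. Ighm and Ighd lie on the same side of 0 as Cd79a, Cd79b, Ms4a1 and Pax5. Of the B cell markers not drawn, Ralgps2 had a ratio of 1.60, on the other side, and Cd72 of 0.996. The IgG sum lies on the same side as Jchain, Xbp1, Fcgr4 and Fcgr2b, with Mzb1 and Sdc1 close to 0 on the other side. Only part of each list is drawn, and of the 11 measured plasma cell markers 3 had a ratio above 1. Among those not drawn, Prdm1 (0.300), Derl3 (0.372) and Irf4 (0.544) had ratios below 1 and Fkbp11 (1.35) above. Of the Fc receptor genes not drawn, Fcmr was lower and Fcer2a had a ratio of 0.356, while Fcgr3 (2.32) and Fcer1g (2.30) had ratios above 1.

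Markers of other cells that a spleen sort can carry were read in the same way. Of 9 erythroid markers 0 were higher and 7 lower, at a summed level of 97.4 and 24.1 CPM and a median log2 ratio of -2.12. The most abundant, Hbb-bs, a beta globin gene, had 497 and 117 counts, 3.41-fold lower (2.78 to 4.21), and Hbb-bt, another, had 149 and 18, 6.65-fold lower (4.06 to 11.5). Of 12 myeloid and dendritic cell markers 0 were higher and 4 lower, at a summed level of 140.2 and 177 CPM and a median of -0.61, and 3 of them had 0 counts in the knockout library. The list was split. Xcr1 (48 and 0 counts), Clec9a (23 and 0) and Flt3 (107 and 26), genes of dendritic cells and their precursors, and S100a8 (12 and 0), a neutrophil gene, were lower. Csf1r, the receptor of monocytes and macrophages and the most abundant of the list, had 958 and 1340 counts, a ratio of 1.74 (1.60 to 1.89), Itgax 145 and 201, a ratio of 1.73 (1.39 to 2.15), and Itgam 100 and 126, a ratio of 1.57 (1.20 to 2.06), none beyond 2-fold. The median of the Treg and CD4 T cell list was -0.06, with members to both sides as given above.

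Genes that act on immunoglobulin were described by function. Over all gene rows tested 4.17% were higher and 6.15% lower. The lists are short, and nothing is read from 1 or 2 called genes in a list. Of 15 measured genes of immunoglobulin secretion and Fc receptors, 3 were higher and 1 lower, with a median log2 ratio of 0.69. All 4 called genes bind antibody, which follows in part from a list built to hold Fc receptors. Fcgr4, an activating IgG receptor of myeloid cells, had 26 and 253 counts, 12.1-fold higher (8.08 to 18.9), and Fcgr2b, the inhibitory IgG receptor, had 75 and 272, 4.52-fold higher (3.49 to 5.91). Trim21, a cytosolic antibody receptor, had 965 and 2086 counts, 2.69-fold higher (2.49 to 2.91). Fcmr, the receptor for IgM, had 251 and 14 counts, 14.4-fold lower (8.42 to 26.7). Fcgr3 and Fcer1g, the latter the signalling chain of activating Fc receptors, had ratios of 2.32 (1.85 to 2.93) and 2.30 (1.88 to 2.84). Both fell short of the rule. So did Fcgr1, the high-affinity IgG receptor (33 and 43 counts, a ratio of 1.62, 1.01 to 2.64), and Fcgrt, the neonatal Fc receptor (87 and 123 counts, a ratio of 1.76, 1.33 to 2.34). On the lower side, Fcer2a, also on the B cell marker list, had 98 and 28 counts, 2.81-fold lower (1.83 to 4.44), short of the rule. Fcamr had 5 and 0 counts. Of the 15 measured genes, 8 had a ratio above 1. Hspa5 (BiP), the chaperone that holds free heavy chains and the most abundant gene of the list, had 7740 and 5173 counts, a ratio of 0.832. Of the Fcgr genes, 2 of 4 thus passed the rule. Fcgr4, Fcgr2b, Fcgr3 and Fcer1g are also expressed by myeloid cells, whose list is given above, and the part of such cells was not tested.

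Of 21 genes of B cell receptor signalling, 1 was higher (Fcgr2b) and 5 lower, with a median log2 ratio of -0.62, and Vav1, its most abundant gene, had 3626 and 3555 counts, a ratio of 1.22. Of 12 measured genes of V(D)J recombination, 0 were higher and 1 lower (median -0.15). That gene was Rag1, which cuts the recombination signals, with 62 and 10 counts, 4.98-fold lower (2.53 to 10.9). Dntt, which adds bases at the joins, had 41 and 8 counts, 4.11-fold lower (1.90 to 10.2), short of the rule. The most abundant, Prkdc, a kinase of end joining, had 1689 and 1303 counts, a ratio of 0.961. Of 14 genes of class switching and somatic hypermutation, 0 were higher and 2 lower (median -0.45). The 2 were Ung and Exo1, which act in DNA repair. Ung had 408 and 122 counts and Exo1 323 and 96. Rif1, the most abundant, had 2815 and 1925 counts, a ratio of 0.852. Of 16 transcription factors of the immunoglobulin loci, 1 was higher and 4 lower (median -0.10). The higher gene was Pou2f1 (OCT1), which binds the octamer motif of V promoters, with 2085 and 3684 counts, 2.20-fold higher (2.08 to 2.32). The lower genes were Pax5, Ebf1, Spib and Pou2af1, all of which are also on the B cell marker list. Ets1, the most abundant, had 28154 and 31072 counts, a ratio of 1.37.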

How the data were processed

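RNA was measured by sequencing in 1 library per genotype from sorted splenic Treg cells. Per the labels, the library kit was Illumina TruSeq v2 on total RNA, a kit without strand information. TopHat, HTSeq and mm10 are named in the submitters' processing notes, and the sources used here do not give versions, annotation or multi-match handling. The deposited tables hold a count and an FPKM per gene name. The authors' FPKM added nothing on differences, since count divided by FPKM differed between libraries by a factor of 1.25 over 9427 rows.

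Counts were scaled with TMM factors (edgeR 4.0.16, R 4.3.3), which moved the ratio between libraries by -0.000839 on the log2 scale against plain totals. With 1 library a genotype there was no model and no p-value. Ratios have exact 95% conditional-binomial intervals, CPM exact Poisson intervals and shares exact Clopper-Pearson intervals. With 1 library a genotype, these intervals cover counting error only. Reads carried no molecular identifiers, so repeat reads of 1 molecule could not be told apart and would make the intervals too narrow. log2 ratios had 0.5 counts added. There were 6 member symbols on more than 1 row, which were kept apart. Positions, exon overlap and sequences came from GENCODE M21 with bedtools 2.31.1 and Biopython 1.88. Calculations used Python 3.11.15, scipy 1.17.1 and pandas 2.3.3 and were tested on simulated data.

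The text names Psmd14, every measured constant gene, the 6 heavy and 6 kappa V segments with most counts, every lambda V segment, the 5 V segments at each end when ranked by the interval bound closest to a ratio of 1, families with 3 or more measured segments, and of each list its most abundant member and up to 3 genes at each end, some of which enter only through their list's counts. Some genes outside these are named for their role and were chosen after their values were seen, and some list members are not reported here by name. The members and the gene lists were chosen with earlier results of these data known. The alternatives tried were plain totals and DESeq2 1.42.0 size factors, a minimum of 20 counts, other folds, FPKM shares and leaving out the largest member.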

Additional observations from a re-analysis of the deposited data

How the results depend on the processing

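With 1 library per genotype, no replicate could be left out. No paired analysis was possible because each genotype has 1 library. Plain totals and DESeq2 size factors changed the direction of none of the sums and called members, and left 37 members higher and 7 lower. Leaving out Ighm, or Ighm and Ighd (chosen after seeing the data), turned the sum over all members from a ratio of 0.735 to 2.60 and 2.94. The sum over constant genes went from 0.591 to 3.09 and 3.99. Leaving out Iglv1 took the lambda V sum from 1.35 to 0.986. With at least 20 counts the kappa V sum was 2.32 in place of 2.13. Counting any interval that excludes a ratio of 1 gave 74 members higher and 14 lower, in place of 37 and 7. Leaving out the largest member of each light chain gave a kappa share of light chain V counts of 94.8% (wild type) and 97.4% (knockout). The IgM share by FPKM was 95.4% and 48.96%. These moves follow from the members or intervals each setting takes in, and for FPKM from the length by which each gene's count is divided. Leaving out the largest member was not run for the IgM share and the kappa constant share, where it leaves no numerator. Depth limits the single V segments most, since many calls rest on fewer than 20 counts in a library.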

Other observations

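Rows for J and D segments lie outside the name rule and enter no comparison above. The 4 heavy chain J rows had 92 wild-type and 11 knockout counts, 6.72-fold lower (3.58 to 13.9), while heavy V segments were higher in the knockout library. The 10 light chain J rows had 15 and 10 counts, and the 20 D rows had 9 and 1. J segments are short, so few reads can be assigned to them, and whether these reads came from rearranged or unrearranged transcripts was not tested.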
